A study of Mus musculus with 2 samples.

Results

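The genes described here are the 3 sestrins (*Sesn1*, *Sesn2* and *Sesn3*), the 3 subunits of the GATOR1 complex (*Depdc5*, *Nprl2* and *Nprl3*), the kinase *Mtor* with its partner *Rptor*, and the TSC genes *Tsc1* and *Tsc2*. They were chosen by gene symbol for their part in amino acid sensing and in the control of mTORC1, and all 10 were found among the 23183 genes of the deposited tables. The KPR- cells were immortalized from lung tumor tissue of a mouse that carried a Cre-activated oncogenic K-Ras allele, p53 flox/flox, Runx3 flox/FSF, a Tomato reporter and the tamoxifen-inducible recombinase Flp-ERT2. Intranasal adenovirus with CMV promoter-driven Cre had switched on K-Ras and deleted p53 and the floxed *Runx3* allele, so both groups share these changes. Whether the cells are 1 clone is not stated in the sources used here. The records give KPR- the genotype RUNX3 -/- and the time 0 h, and KPRrestored the genotype RUNX3 -/+ and the time 16 h. 4-hydroxytamoxifen (4-OHT) makes Flp-ERT2 cut out the stop cassette of the other *Runx3* allele, and the records list 1 μM 4-OHT for both groups, although the study sets KPRrestored apart by this treatment. Each group is 1 library of poly(A)-selected RNA from cultured cells, so no value here has a replicate and no p-value was computed. The effects of *Runx3*, of 4-OHT and of time in culture cannot be told apart.

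mTORC1 is a protein kinase complex on the lysosome, built around mTOR and its scaffold Raptor (*Rptor*), which turns on protein synthesis and holds back autophagy when nutrients and growth factors are at hand. Amino acids act through the Rag GTPases. GATOR1 switches the Rags off, GATOR2 inhibits GATOR1, and sestrins bind GATOR2 and release GATOR1 when leucine is scarce. Growth factors act through the TSC complex, which keeps the GTPase Rheb inactive. Sestrin genes are known targets of stress-activated transcription factors, *Sesn2* of p53, ATF4 and NRF2, *Sesn1* of p53 and FOXO factors, and *Sesn3* of FOXO factors.

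The values are FPKM, the fragment number of a gene scaled by transcript length and by library size, so levels can be compared between genes. Differences are log2(FPKM + 0.005) in KPRrestored minus KPR-, and a gene is called higher or lower at 0.5 or more either way. Low FPKM values fall on the steps of whole fragments, which placed the depth at about 21.8 M fragments in KPR- and 22.4 M in KPRrestored. Each 95% interval given here is an exact binomial (Clopper-Pearson) interval on fragments estimated from that depth, and covers counting error only, not the spread between cultures. The epithelial markers *Epcam*, *Cdh1*, *Krt8* and *Krt18* lay between 91.6 and 1931 FPKM in the libraries, while the lung lineage factor *Nkx2-1* was at 0.0444 and 0.0216 FPKM and *Sftpc* was listed at 0 in both. The 5 fibroblast markers summed to 12.7 and 5.33 FPKM, of which *Col1a1* made up 12.2 and 4.21 FPKM, while the other 4 were below 1 FPKM in both libraries and *Dcn* (0.173 and 0.742 FPKM) and *Pdgfra* (0.273 and 0.363 FPKM) differed the other way. The 3 endothelial markers summed to 1.16 and 2.22 FPKM, of which *Kdr* made up 1.10 and 2.05 FPKM. *Cdh5* was at 0 and 0.141 FPKM, and *Pecam1*, at 0.0601 and 0.0292 FPKM, differed the other way. Of the leukocyte markers, *Cd68* was at 3.08 and 6.78 FPKM, *Ptprc* at 0 and 0.00892 FPKM, and *Cd3e* and *Adgre1* were listed at 0 in both libraries. Whether any other cell type was present, or had a part in the differences described here, was not tested. *Runx3* itself was at 0.348 FPKM in KPR- and 0.349 FPKM in KPRrestored, from about 28 and 29 fragments, a log2 difference of 0.0074 (-0.79 to 0.81). At this depth no gene-level rise was detectable in the library labelled as restored, but the interval holds a rise of up to 1.76-fold. How many of the *Runx3* fragments came from which allele was not measured. Every direction given here is that between the libraries as labelled.

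The sestrin promoters are shown because the sestrins were the family with the widest spread of differences. *Sesn2* lies on chromosome 4 (132492032 to 132510501, minus strand), *Sesn3* on chromosome 9 (14275067 to 14333101, plus strand) and *Sesn1* on chromosome 10 (41809935 to 41908424, plus strand) of GRCm38. Each stretch, taken from the RefSeq promoter window on GRCm38.p6, lies before a RefSeq start site and holds no annotated exon. That of *Sesn1* belongs to the second of its RefSeq start sites. The stretches of *Sesn3* and *Sesn1* lie inside the gene spans given above, downstream of the GENCODE starts. In the order printed, the stretches are chr4:132510502-132510706 (minus strand), chr9:14276051-14276300 and chr10:41887189-41887438 (both plus strand). Capitals mark a match to the RUNX motif TGTGGT on the opposite strand.
Sesn2: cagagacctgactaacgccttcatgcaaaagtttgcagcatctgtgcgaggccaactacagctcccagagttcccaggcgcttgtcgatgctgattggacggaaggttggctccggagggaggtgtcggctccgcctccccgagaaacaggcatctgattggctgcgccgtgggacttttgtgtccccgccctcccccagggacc
Sesn3: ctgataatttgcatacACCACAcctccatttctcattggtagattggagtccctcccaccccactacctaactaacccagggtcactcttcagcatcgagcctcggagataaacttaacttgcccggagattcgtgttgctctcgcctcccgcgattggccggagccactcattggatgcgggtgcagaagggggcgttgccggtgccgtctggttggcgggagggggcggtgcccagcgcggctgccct
Sesn1: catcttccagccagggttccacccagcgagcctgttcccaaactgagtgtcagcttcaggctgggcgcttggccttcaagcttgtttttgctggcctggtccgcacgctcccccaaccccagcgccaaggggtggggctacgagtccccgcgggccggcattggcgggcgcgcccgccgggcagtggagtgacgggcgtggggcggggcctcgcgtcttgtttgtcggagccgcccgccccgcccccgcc

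Short motifs were searched on both strands of the RefSeq promoter windows, which span 250 bases before to 50 bases after each start. The RUNX motif TGTGGT was found in 1 of the 11 windows of the 10 genes, that of *Sesn3* at -234 to -229, and in 16.8% of all 32851 windows. The *Sesn3* match lies upstream of its RefSeq start and downstream of its GENCODE start. The core of the antioxidant response element, TGACNNNGC, through which NRF2 acts, was found in the *Sesn2* window alone among the 11, as TGACAGAGC at -36 to -28, and in 12.4% of all windows. These 9 bases lie downstream of the GENCODE start of *Sesn2* and upstream of its RefSeq start. The response element bound by ATF4 with C/EBP factors, TGATGNAA, was found in 0 of the 11 windows and in 3.97% of all windows. A match is a description of the letters in these windows, and no binding was measured.

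*Sesn2*, a leucine sensor, was at 3.55 FPKM in KPR- and at 15.1 FPKM in KPRrestored, 4.27-fold higher (95% interval 3.71 to 4.91). The log2 difference of 2.09 ranked 49 among the 11231 genes whose mean FPKM was 1 or more, and about 253 and 1108 fragments stood behind the levels. *Sesn2* was thereby the 9th of the 10 genes by level in KPR- and the 1st in KPRrestored. *Sesn3*, a target of FOXO factors, was at 5.70 FPKM in KPR- and at 8.23 FPKM in KPRrestored, a log2 difference of 0.53 (0.42 to 0.64). *Sesn1*, a target of p53 and FOXO factors, was at 3.37 FPKM in KPR- and 2.96 FPKM in KPRrestored, a log2 difference of -0.19 whose interval, from -0.44 to 0.075, holds 0. The 3 paralogs thus ran from 4.27-fold higher to slightly lower, with counting intervals that do not overlap each other.

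**Figure D1:**
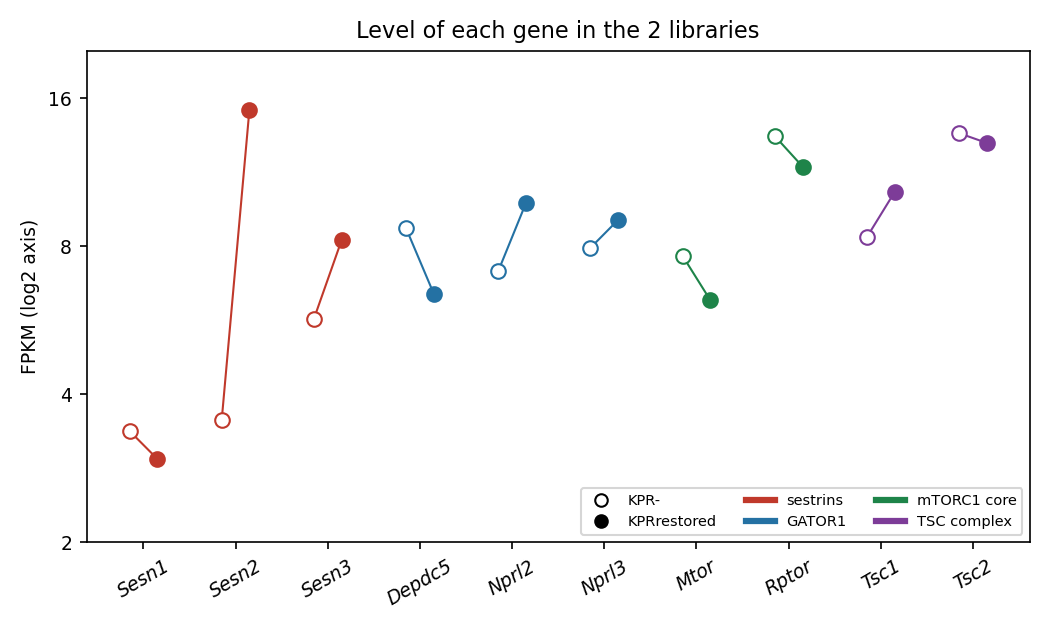
FPKM of each gene (log2 axis) in the KPR- library (open circles) and the KPRrestored library (filled circles), joined by a line and coloured by complex, with 1 library in each group. *Sesn2* is at 3.55 and 15.1 FPKM and passes from the second lowest place in KPR- to the highest in KPRrestored, while the other genes move by 1.44-fold or less in either direction.

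The sestrin levels summed to 12.6 FPKM in KPR- and 26.3 FPKM in KPRrestored, a 2.09-fold ratio. *Sesn2* made up 28.1% of that sum in KPR- and 57.5% in KPRrestored. *Sesn3* went from 45.2% to 31.3% and *Sesn1* from 26.7% to 11.2% of the sum. The most abundant sestrin transcript was thus *Sesn3* in KPR- and *Sesn2* in KPRrestored, and the level ratio of *Sesn2* to *Sesn1* went from 1.05 to 5.12.

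In the order of log2 differences, the nearest genes above *Sesn2* were *Jdp2* (2.14), *Cth* (2.11) and *Ddit3* (2.11), and the nearest below were *Sprr2e* (2.09), *Rhox5* (2.06) and *Dusp1* (2.06). *Ddit3* encodes the stress factor CHOP, *Cth* a cysteine-making enzyme and *Dusp1* a MAP kinase phosphatase. This likeness is that of a single difference between 2 libraries. Behind the differences stood about 5 and 22 fragments for *Rhox5* and at least 53 in each library for the other 5 genes.

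Of 6 genes of transcription factors that act on sestrin genes, 4 were called higher and 0 lower, where 12.1% and 9.29% of the 11231 genes whose mean FPKM was 1 or more were. *Foxo1* and *Foxo3*, 2 of the 4, lost the call under alternatives. *Atf4*, the factor of the amino acid response, was at 145 FPKM in KPR- and 446 FPKM in KPRrestored, a log2 difference of 1.62 (1.58 to 1.67). *Nfe2l2*, which encodes NRF2, was at 63.9 and 109 FPKM, a difference of 0.77 (0.71 to 0.84). The FOXO genes had differences of 0.51 for *Foxo1*, 0.53 for *Foxo3* and 0.19 for *Foxo4*, of which *Foxo1* and *Foxo3* lay just past the threshold. *Trp53*, whose floxed exons are deleted in these cells, was at 2.12 and 2.17 FPKM, a difference of 0.034 (-0.43 to 0.50). With a pseudocount of 1, the differences of *Foxo1* and *Foxo3* were 0.45 and 0.46, under the threshold, as both were after upper quartile scaling. With the length trend removed, *Foxo3* was also under the threshold and *Foxo1* was at 0.70.

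GATOR1 is the complex that stimulates GTP hydrolysis by RagA and RagB, with DEPDC5 as the subunit that contacts the Rags and NPRL2 as the subunit that carries the catalytic arginine. Its genes differed in opposite directions, by less than 0.5. *Depdc5* (chromosome 5, 32863701 to 32994236, plus strand) was at 8.70 FPKM in KPR- and 6.41 FPKM in KPRrestored, a log2 difference of -0.44 (-0.55 to -0.33). *Nprl2* (chromosome 9, 107542226 to 107545706, plus strand) was at 7.13 FPKM in KPR- and 9.80 FPKM in KPRrestored, a difference of 0.46 (0.19 to 0.74). *Nprl3* (chromosome 11, 32225628 to 32267707, minus strand) was at 7.95 FPKM in KPR- and 9.06 FPKM in KPRrestored, a difference of 0.19 (0.0090 to 0.37), and shares 1340 exonic bases with *Mpg* on the opposite strand (7.34 and 8.25 FPKM). The interval of *Depdc5* thus lay below 0 and those of its partners above 0, that of *Nprl3* only just. With the length trend removed, the differences were -0.26 for *Depdc5*, 0.37 for *Nprl2* and 0.14 for *Nprl3*. The level of *Depdc5* over that of *Nprl2* went from 1.22 to 0.654, while the sum over the complex was 23.8 FPKM in KPR- and 25.3 FPKM in KPRrestored.

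*Mtor* (chromosome 4, 148448611 to 148557683, plus strand), the kinase, was at 7.65 FPKM in KPR- and 6.22 FPKM in KPRrestored, a log2 difference of -0.30 (-0.41 to -0.18). *Rptor* (chromosome 11, 119602905 to 119899576, plus strand), the scaffold that brings substrates to mTOR, was at 13.4 FPKM in KPR- and 11.6 FPKM in KPRrestored, a difference of -0.21 (-0.30 to -0.11). Both were lower in KPRrestored by more than counting error and by less than the threshold, and the level of *Rptor* over that of *Mtor* was 1.75 in KPR- and 1.87 in KPRrestored.

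*Tsc1* (chromosome 2, 28641228 to 28691167, plus strand), which encodes the stabilizing subunit hamartin, was at 8.36 FPKM in KPR- and 10.3 FPKM in KPRrestored, a log2 difference of 0.30 (0.20 to 0.41). *Tsc2* (chromosome 17, 24595816 to 24632630, minus strand), which encodes tuberin, the subunit that acts on Rheb, was at 13.6 FPKM in KPR- and 13.0 FPKM in KPRrestored, a difference of -0.066 (-0.16 to 0.031). Only the interval of *Tsc1* lay away from 0, and the level of *Tsc2* over *Tsc1* went from 1.63 to 1.26. *Tsc2* shares 693 exonic bases with *Pkd1* on the opposite strand (6.68 and 6.45 FPKM), and whether the authors' counting used strand is not given in the sources used here.

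**Figure D2:**
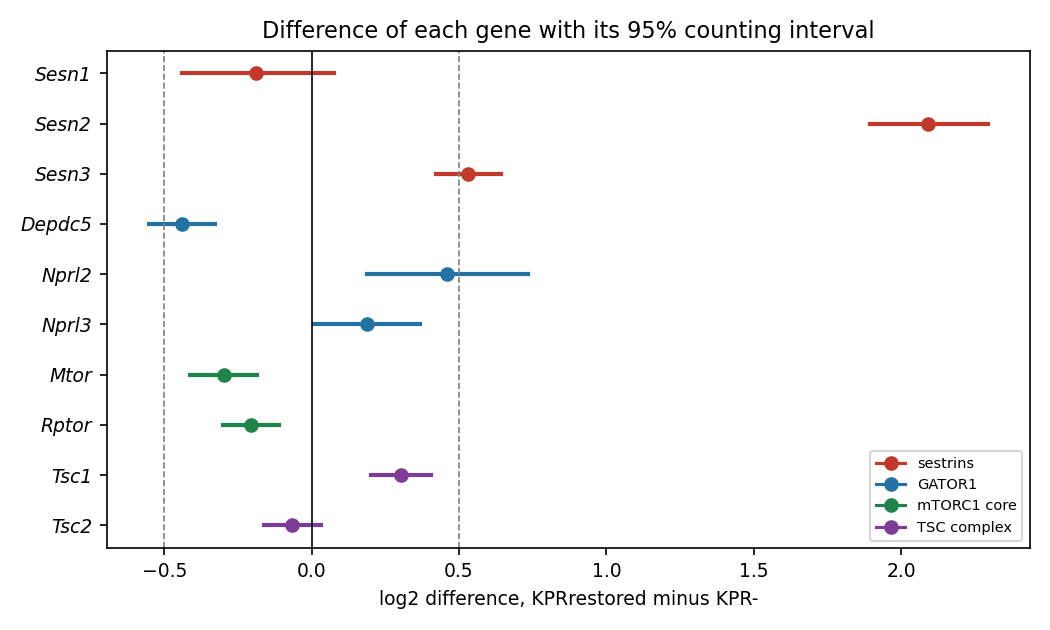
Log2 difference of each gene, KPRrestored minus KPR- (points), with its 95% counting interval (bars), which covers counting error only; dashed lines mark 0.5 either way. The interval of *Sesn2* lies wholly past 0.5, that of *Sesn3* spans 0.5, and those of *Sesn1* and *Tsc2* hold 0.

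*Sesn2* and *Sesn3*, 2 of the 10 genes, were called higher, as were 12.1% of the 11231 genes whose mean FPKM was 1 or more. None (0 of 10) were called lower, as were 9.29% of those 11231. The counts of called genes are therefore close to what the whole table holds, and what stands apart by size is *Sesn2*. The counting intervals of 5 genes lay above 0, those of 3 below 0 and those of 2 held 0. The median difference of the 10 genes was 0.061, against 0.0086 for all genes. The call for *Sesn3* depends on the scale, with a difference of 0.46 with a pseudocount of 1 and 0.496 after scaling to the same upper quartile.

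By level, the genes spanned from 3.37 to 13.6 FPKM in KPR- and from 2.96 to 15.1 FPKM in KPRrestored. The order in KPR- was *Tsc2*, *Rptor*, *Depdc5*, *Tsc1*, *Nprl3*, *Mtor*, *Nprl2*, *Sesn3*, *Sesn2* and *Sesn1*. Neighbours that differed by more than counting error were *Rptor* and *Depdc5*, *Nprl2* and *Sesn3*, and *Sesn3* and *Sesn2*. The sestrins were thus the 3 lowest genes in KPR-. The order in KPRrestored was *Sesn2*, *Tsc2*, *Rptor*, *Tsc1*, *Nprl2*, *Nprl3*, *Sesn3*, *Depdc5*, *Mtor* and *Sesn1*. There the neighbours within counting error were *Tsc1* and *Nprl2*, *Nprl2* and *Nprl3*, *Nprl3* and *Sesn3*, and *Depdc5* and *Mtor*.

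Transcript length moved with the differences across the whole table. The median difference was 0.086 for the 1821 genes with transcripts under 1500 bases and -0.18 for the 1376 genes with transcripts of 6000 bases or more. The transcripts of *Mtor* (8564 bases), *Depdc5* (8216 bases), *Rptor* (6594 bases) and *Tsc2* (6266 bases) are in the long class, as are those of *Tsc1* (7702 bases) and *Sesn3* (9125 bases). With the length trend removed, the differences were -0.26 for *Depdc5*, -0.11 for *Mtor*, -0.066 for *Rptor* and 0.062 for *Tsc2*. *Mtor*, *Rptor* and *Tsc2* then lay within 0.11 of 0, and the sign of *Tsc2* turned. *Tsc1* and *Sesn3*, which also have long transcripts but were higher, moved to 0.47 and 0.73. *Sesn2*, with a transcript of 3475 bases, was at 2.08. The part of transcript length in these differences was not tested further.

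**Figure D3:**
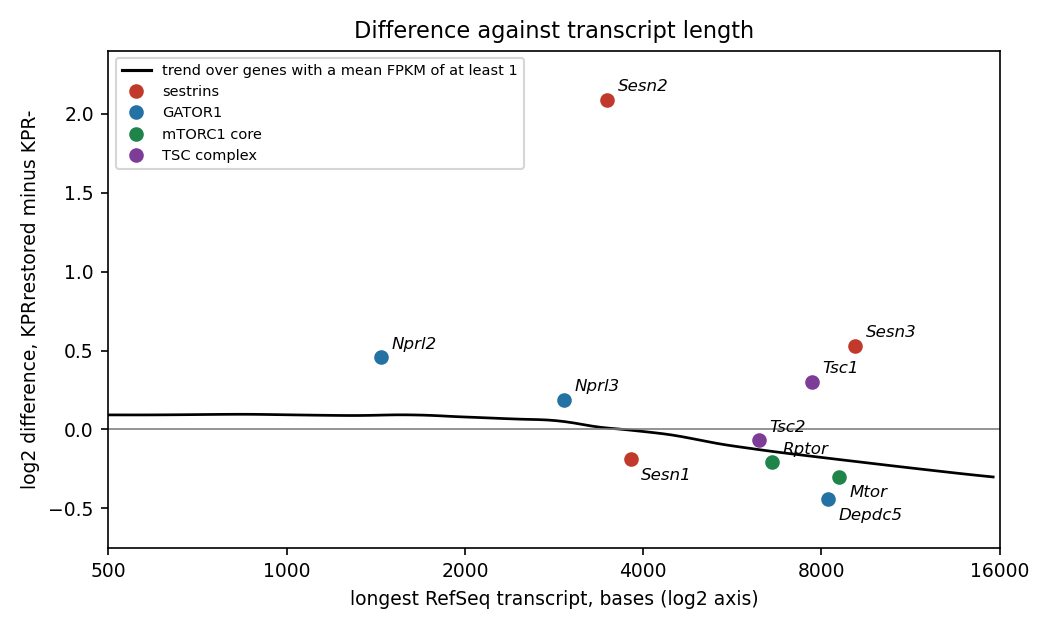
Log2 difference of each gene, KPRrestored minus KPR- (points, coloured by complex), against the length of its longest RefSeq transcript (log2 axis); the black line is the trend over the 11177 genes whose mean FPKM was 1 or more and whose length is known. *Rptor*, *Tsc2* and *Mtor* lie near the line, and *Sesn2*, *Sesn3* and *Tsc1* lie above it.

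The rest of the pathway was described by 71 further genes, listed by role. Of these, 66 had a mean FPKM of 1 or more and were counted, and 11 (16.7%) of the 66 were called higher and 1 (1.52%) lower, beside the 12.1% and 9.29% of all genes. Their median difference was 0.072. The other 5 genes are low in both libraries: *Rragd* (0.350 and 0.880 FPKM), *Prkaa2* (0.687 and 0.910 FPKM), *Ddit4l* (0.801 and 0.407 FPKM), *Prkag3* (0.122 and 0.102 FPKM) and *Prr5l* (0.0463 and 0.0337 FPKM). The calls in each list below stand beside the same 12.1% and 9.29%, and each list is short.

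Among the genes that pass the amino acid signal from sestrins and GATOR1 on, those of GATOR2, the complex that sestrins bind, held 0 of 5 genes past the threshold, with differences from -0.21 to 0.14. Its gene nearest to 0 was *Sec13*, with 93.1 and 95.5 FPKM. Of the 4 genes of KICSTOR, which tethers GATOR1 to the lysosome, *Itfg2* was higher, with 11.1 FPKM in KPR- and 18.0 FPKM in KPRrestored (0.69, interval 0.53 to 0.85), and *Kptn* had a difference of -0.038.

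Of the 5 genes of other amino acid sensors, 2 (40%) were higher and 0 were lower, beside 12.1% and 9.29% of all genes. *Lars*, the cytosolic leucyl-tRNA synthetase and a proposed leucine sensor, was at 49.0 FPKM in KPR- and 93.2 FPKM in KPRrestored (0.93, interval 0.87 to 0.98). *Gatsl3*, the older symbol of the arginine sensor *Castor1*, was at 5.83 FPKM in KPR- and 10.5 FPKM in KPRrestored (0.85, interval 0.57 to 1.12). The lysosomal arginine sensor *Slc38a9* had 1.57 and 1.54 FPKM.

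The GTPase steps on the lysosome held 0 calls among the 3 counted Rag genes (-0.19 to 0.49) and the 5 Ragulator genes (-0.094 to 0.34), of which *Rragb* and *Lamtor4* were nearest to 0. The Rag gene *Rragd*, too low to be counted, had a difference of 1.32 (0.76 to 1.91) from about 37 and 95 fragments. The 3 genes of the FLCN-FNIP complex, which acts on RagC and RagD, were all higher, beside 12.1% of all genes. *Flcn* was at 11.2 FPKM in KPR- and 17.6 FPKM in KPRrestored (0.65, interval 0.52 to 0.78), *Fnip2* had a difference of 0.59 (0.42 to 0.75) and *Fnip1* of 0.53 (0.42 to 0.64). That of *Fnip1* was 0.48 with a pseudocount of 1, under the threshold, as it was after upper quartile scaling. The 3 genes of Rheb, its relative and the TSC partner *Tbc1d7* held 0 calls (-0.25 to 0.48).

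The other subunits of mTORC1 held 0 of 3 calls (-0.32 to 0.30, *Deptor* nearest to 0 at -0.21), those of mTORC2 0 of 3 (-0.27 to -0.098, *Rictor* nearest) and the TTT assembly factors 0 of 3 (-0.12 to 0.42, *Tti1* nearest at 0.0016). Of 6 counted genes of AMPK and its activator *Stk11*, *Prkag2* was lower, with 9.79 FPKM in KPR- and 6.61 FPKM in KPRrestored (-0.57, interval -0.74 to -0.39), and the catalytic *Prkaa1* was at 22.5 and 22.6 FPKM. The 9 genes from PI3K to AKT held 0 calls, with *Akt2* at 37.2 FPKM in both libraries and a median of -0.076 that was 0.039 with the length trend removed.

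*Ddit4*, which encodes REDD1, a stress-induced inhibitor of mTORC1 that acts through the TSC complex, was at 48.7 FPKM in KPR- and 119 FPKM in KPRrestored, a log2 difference of 1.29 (1.20 to 1.37). Its difference was the largest of the 66 counted genes, while that of *Rragd*, too low to be counted, was 1.32. The paralog *Ddit4l*, also too low to be counted, went the other way at -0.97 (-1.77 to -0.22), from about 44 and 23 fragments. Of the 13 genes of mTORC1 effectors, 4 (30.8%) were higher and 0 were lower, beside 12.1% and 9.29% of all genes. *Eif4ebp1*, the translation repressor that mTORC1 phosphorylates, was at 92.3 FPKM in KPR- and 215 FPKM in KPRrestored (1.22, interval 1.16 to 1.28). *Grb10*, an adaptor that dampens insulin signalling, was at 1.98 and 4.33 FPKM (1.13, interval 0.89 to 1.37), *Pdcd4*, a translation inhibitor, had a difference of 0.80 (0.62 to 0.98), and *Tfe3*, a factor of lysosomal genes, of 0.66 (0.56 to 0.75). *Lpin1* was nearest to 0, with 2.45 FPKM in both libraries.

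**Figure D4:**
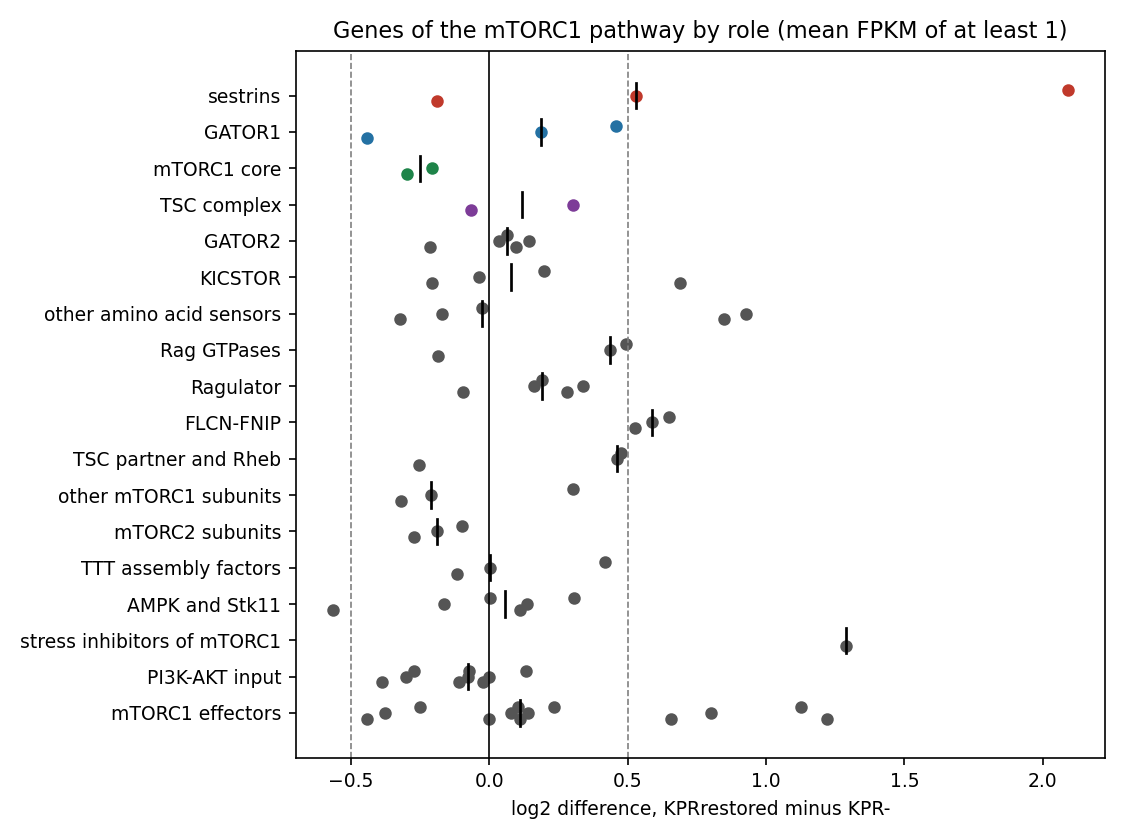
Log2 difference, KPRrestored minus KPR-, of the 10 genes (coloured) and the 66 other counted pathway genes (grey), by role; black ticks are medians and dashed lines mark 0.5 either way. *Sesn2* lies furthest to the right at 2.09, followed by *Ddit4* at 1.29 and *Eif4ebp1* at 1.22, and *Prkag2* alone lies below -0.5.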

How the data were processed

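mRNA of 1 KPR- library and 1 KPRrestored library was sequenced. The authors trimmed the paired-end reads with FASTX_Trimmer and BBMap, mapped them using TopHat (mm10 in the submitters' processing notes) and deposited FPKM values estimated using Cufflinks. The paper also names a geometric normalization with EdgeR, and whether the deposited values carry it was not determined. If they do, the depths given here are those of the scaled values. Versions and the annotation are not given in the sources used here, nor whether counting used strand. The 10 genes, the pathway and marker lists, the motifs and the thresholds were chosen with earlier results of these data known, so no list count is independent evidence. A leukocyte marker is not reported here.

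Transcript lengths were taken from GENCODE M21 (GRCm38), the longest with a RefSeq counterpart. By symbol, 22148 of the 23183 genes were matched as written and 654 by a synonym. The depth and a mean fragment length of 210 bases were those at which genes with 1 transcript of at least 600 bases and 0.5 to 5.5 estimated fragments came closest to whole numbers. In all, 79.2% of 1594 genes in KPR- and 80.4% of 1551 genes in KPRrestored lay within 0.1 of one, where 20% would by chance. Where shorter transcripts also contribute, the estimated fragment number is too high. With no replicates, no test was run. Of the pathway lists, the genes past 0.5, the gene nearest to 0 and genes listed at 0 in both libraries were to be named, and the 5 low genes were named after their values were seen. Alternatives were pseudocounts of 0.1 and 1, scaling to the same total (TPM) or upper quartile, centring on the median gene, removal of a lowess trend with transcript length, a threshold of 1, other filters on mean FPKM and the shortest transcript. Analyses used scipy 1.17.1, statsmodels 0.14.6 and pandas 2.3.3 in Python 3.11.15, and plots matplotlib 3.10.9.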

Additional observations from a re-analysis of the deposited data

How the results depend on the processing

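Of the 60 differences of the 10 genes under alternatives, 53 stayed within the counting interval of the value reported. A pseudocount of 1 gave 1.83 for *Sesn2*. Removal of the length trend gave 0.73 for *Sesn3*, -0.26 for *Depdc5*, -0.11 for *Mtor*, -0.066 for *Rptor*, 0.47 for *Tsc1* and 0.062 for *Tsc2*, the one gene whose sign changed under any alternative. The interval of *Depdc5* was 0.35 wide with its shortest transcript, against 0.22. The count of the 10 genes called higher was 1 with a pseudocount of 1, 1 with the upper quartile and 1 at a threshold of 1, *Sesn3* being the gene lost. None of the 10 was lower by 0.5 or more under any alternative. Of the other pathway genes, 3 were higher and 0 lower at a threshold of 1, and 2 were lower with no filter on low values. The TPM, upper quartile and centring alternatives moved the median of all genes by less than 0.1. No paired analysis was possible because each group has 1 library, and no library could be left out. The spread between cultures was not measured. For the values as reported, counting error alone leaves the sign of *Sesn1* and *Tsc2* unsettled. With the length trend removed, the differences of *Mtor*, *Rptor* and *Nprl3* were smaller in size, and no interval was computed for them.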
